A study of Mus musculus with 20 samples.

Results

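The genes described here encode the constitutive proteasome and its regulators, taken by name as every mouse gene symbol made of Psm, a letter from a to g and a number, without the inducible catalytic subunits Psmb8, Psmb9 and Psmb10. This rule gave 45 of the 35204 genes in the gene-level table. RNA sequencing was performed on terminal ileum of 20 C57Bl6 mice. The study's methods give them as females, 7 weeks old before the 3 weeks of diet, with tissue taken at the endpoint. The mice formed 4 groups of 5, fed for 3 weeks either a control amino acid diet (CD) or the same kind of diet lacking tryptophan (TDD), and either left specific pathogen-free (SPF) or given ampicillin, vancomycin, gentamycin, metronidazole and neomycin (ABX) in sweetened drinking water. The groups are therefore CD, TDD, CD+ABX and TDD+ABX, and a mouse number below only names a mouse within its group.

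The proteasome is the barrel-shaped protease that degrades proteins tagged with ubiquitin in the cytosol and nucleus. Its 20S core is a stack of outer alpha rings (Psma genes) and inner beta rings (Psmb genes), in which Psmb5, Psmb6 and Psmb7 carry the chymotrypsin-like, caspase-like and trypsin-like sites. The 19S cap binds ubiquitin chains, removes them and unfolds the substrate, with a ring of ATPases (Psmc genes) and a set of other subunits (most Psmd genes), while Psme genes encode alternative activators, Psmf1 an inhibitor and Psmg genes assembly chaperones. The transcription factor NRF1, encoded by Nfe2l1, is known to raise the subunit genes together when proteasome activity falls. Interferon-gamma is known to replace the catalytic beta subunits with Psmb8, Psmb9 and Psmb10 and to raise the PA28 activator subunits Psme1 and Psme2, which together favour peptides for MHC class I.

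Each mouse had between 36676963 and 58662617 estimated counts, and the 45 genes together held between 0.264% and 0.338% of them. Of the 45, 44 passed the low-count filter of 0.5 CPM (counts scaled to a common library total) in at least 1 mouse and were tested among 16306 genes. The exception was Psma8, the germ-cell form of an alpha subunit, with 1 to 12 counts per mouse. Among enterocyte markers, Vil1 (2491 to 5132 CPM over all mice), Fabp2 (2146 to 9415 CPM) and Alpi (420 to 1104 CPM) were plentiful in every mouse. Those particular to the ileum were low in SPF mice. Fabp6, the ileal bile acid binding protein, was at 0.238 to 3.91 CPM in SPF mice and 2.65 to 144 CPM with ABX, and Slc10a2, the ileal bile acid transporter, at 1.38 to 8.80 CPM and 13.2 to 86.1 CPM. No marker of any cell type examined was at 0. CPM values below are scaled by the trimmed mean of M-values (TMM), and TPM (transcript abundance scaled for length as well as depth) is used wherever genes are compared with each other. In whole tissue, fewer cells of a type and less RNA per cell cannot be told apart. No source used here says whether mice of a group came from separate cages or litters, so p-values measure the spread between these mice.

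Proteasome genes spanned a wide range of levels that in part followed their roles. Averaged over the 20 mice on the TPM scale, the most abundant was Psme2 at 344 ± 42.1 TPM (SD, n = 20), followed by the catalytic subunit Psmb6 at 188 ± 14.7, Psme1 at 183 ± 25.0 and the alpha subunit Psma7 at 173 ± 9.42. From Psmb6 to Psma7, neighbours in this order differed by less than the spread of Psme1 over mice. The 7 alpha subunits other than Psma8 lay between 62.7 TPM (Psma2) and 173 TPM (Psma7), and the 7 beta subunits other than Psmb11 between 76.4 TPM (Psmb7) and 188 TPM (Psmb6). The 6 ATPases ranged from 54.8 TPM (Psmc2) to 105 TPM (Psmc3). Among the 14 Psmd genes the highest was Psmd8 at 99.98 TPM, and the lowest were Psmd5 at 13.1 TPM, Psmd9 at 16.6 TPM and Psmd10 at 17.0 TPM, which are the known chaperones of 19S base assembly and not parts of the finished cap. The 4 Psmg assembly chaperones lay between 13.7 and 15.4 TPM, the inhibitor Psmf1 at 17.6 TPM and the large activator Psme4 (PA200) at 19.3 TPM. Psmb11, the beta subunit known from thymic cortical epithelium, was at 0.479 TPM and Psma8 at 0.106 TPM. The level of Psme2 shares sequence with a near-identical copy, Psme2b, and is uncertain to that extent. TPM per gene, here and in the sums below, adds all transcripts of a gene, coding or not. For Psma3, 60.1% of the TPM lay on Psma3-203, a transcript annotated as retaining an intron and not as protein-coding.

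**Figure D1:**
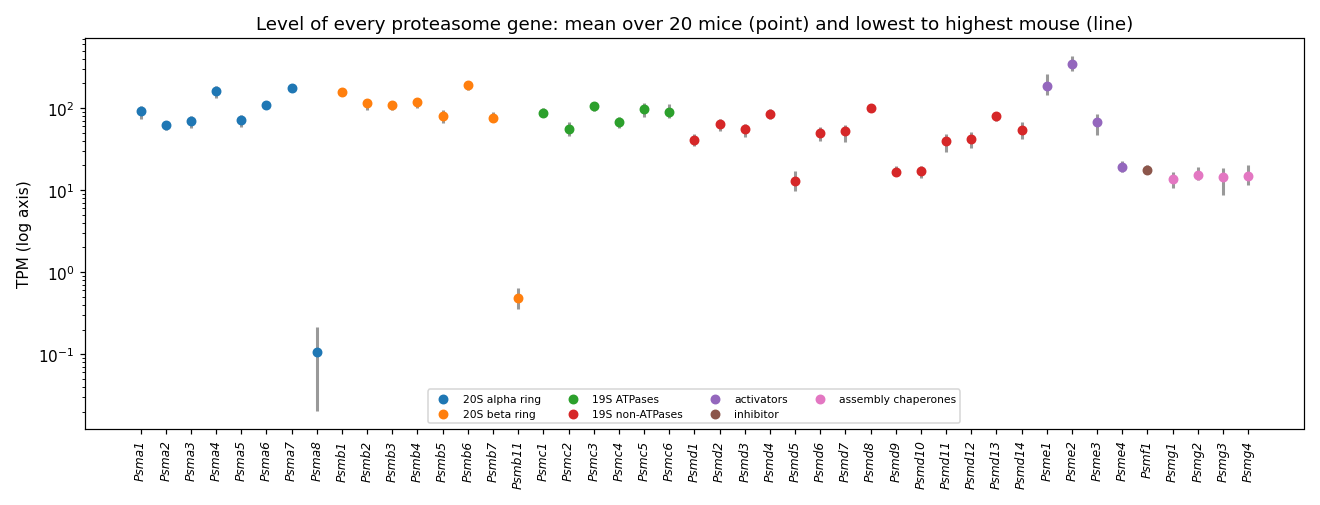
Level of each of the 45 proteasome genes in TPM on a log axis, coloured by role, with the point at the mean over 20 mice and the line from the lowest to the highest mouse. Core, ATPase and most cap genes sit within the same band, the assembly factors lower, and Psmb11 and Psma8 below 1 TPM.

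The sum over the 45 genes was lowest on TDD in SPF mice. It was 3556 ± 135 TPM on CD (SD, n = 5), 3140 ± 95.3 on TDD, 3581 ± 108 on CD+ABX and 3636 ± 101 on TDD+ABX. The highest TDD mouse, at 3232 TPM, was below the lowest mouse of each other group, at 3426, 3449 and 3525 TPM. This separation held on the TPM scale only. Summed as CPM, the 45 genes were at 2922 to 3311 CPM on CD, 2628 to 2968 on TDD, 2998 to 3267 on CD+ABX and 2949 to 3231 on TDD+ABX, so that TDD was separate from CD+ABX but overlapped CD and TDD+ABX. For the 20S core the sums were 1616 ± 70.4 TPM on CD, 1440 ± 55.8 on TDD, 1592 ± 60.0 on CD+ABX and 1660 ± 34.7 on TDD+ABX. The 19S genes, with the assembly chaperones Psmd5, Psmd9 and Psmd10 counted among them, summed to 1182 ± 40.6, 1082 ± 33.1, 1264 ± 32.1 and 1316 ± 55.4 TPM in the same order. The 19S and 20S sums did not keep 1 proportion across the groups. The ratio of the 19S sum to the 20S sum was 0.737, 0.708, 0.730, 0.742 and 0.741 in the 5 CD mice and 0.699, 0.748, 0.762, 0.774 and 0.779 in the 5 TDD mice. It was 0.798, 0.823, 0.782, 0.777 and 0.791 in CD+ABX mice and 0.791, 0.794, 0.819, 0.767 and 0.793 in TDD+ABX mice. Every CD+ABX mouse was above every CD mouse, while TDD and TDD+ABX mice overlapped. These sums and ratios are descriptions without a test.

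The promoters of the genes on which the comparisons below turn are shown first, from RefSeq windows on GRCm38.p6 that matched 37 of the 45 genes in 40 windows of 250 bases before to 50 bases after the start. Each 100-base stretch ends just before the gene's first annotated base and is printed in the direction of transcription, with the CCAAT box in capitals where one occurs.
Psma1, chr7:114276119-114276218, minus strand: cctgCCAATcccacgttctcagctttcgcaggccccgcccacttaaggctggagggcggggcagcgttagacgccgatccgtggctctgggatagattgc
Psmd11, chr11:80428515-80428614, plus strand: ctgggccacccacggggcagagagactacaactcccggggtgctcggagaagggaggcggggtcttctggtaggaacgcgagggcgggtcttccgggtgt
Psmc5, chr11:106256054-106256153, plus strand: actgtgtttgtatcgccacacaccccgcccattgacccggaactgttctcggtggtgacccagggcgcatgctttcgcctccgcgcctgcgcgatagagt
Psmd6, chr14:14120985-14121084, minus strand: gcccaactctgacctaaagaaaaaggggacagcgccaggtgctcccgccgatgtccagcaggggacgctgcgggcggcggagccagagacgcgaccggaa
Psma1 fell most with TDD in SPF mice, Psmd11 was called in both comparisons that include the TDD group, and Psmc5 and Psmd6 were called with ABX on both diets. All 4 stretches were rich in G and C, at 64.0%, 68.0%, 62.0% and 67.0% in the order printed. CCAAT, searched on both strands, occurred in 13 of the 40 windows (32.5%) against 37.4% of all 32851 windows of the same length.

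Further, windows were searched on both strands for TGACNNNGC, the antioxidant response element that NRF1 and related factors are known to bind, and for the interferon-stimulated response element, here TTTC, any 2 bases and TTTC again. The first was found in 6 of the 40 windows (15.0%), in Psmb5, Psmb6, Psmc6, Psmd12, Psmd9 and Psme4, against 12.4% of all windows. The second occurred in 5 of the 40 (12.5%), in Psmb3, Psmd4, Psmd9, Psme1 and Psmg4, against 3.44% of all windows. The matches for the catalytic subunits Psmb5 and Psmb6 and for the interferon-inducible Psme1 are printed as 30 bases in the direction of the gene, with the match in capitals.
Psmb5, chr14:54618024-54618053, minus strand: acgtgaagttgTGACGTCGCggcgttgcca
Psmb6, chr11:70525337-70525366, plus strand: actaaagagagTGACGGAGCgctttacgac
Psme1, chr14:55578493-55578522, plus strand: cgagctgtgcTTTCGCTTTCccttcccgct
Counted from the RefSeq start, the match began 47 bases before it in Psmb5 and 9 before it in Psmb6, and at base 10 of the transcript in Psme1. The first GENCODE base of the gene, used for the gene positions given here, lies elsewhere, and from it the match began 20 bases before in Psmb5, 19 before in Psmb6 and at base 381 in Psme1. The CACGTG E-box was in 3 of the 40 windows (7.5%) against 7.15%. The window of Psmd9 held 3 of these motifs at separate positions. A match describes the letters in these windows and not binding.

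The first comparison asked how tryptophan deficiency changed the ileum of mice with an intact microbiota. TDD lowered 8 of the 44 genes tested and raised none at an adjusted p under 0.05, the threshold for a gene called. The 8 were Psma1, Psma5, Psmb2 and Psmb5 of the core, Psmd11 and Psmd3 of the cap, and Psme1 and Psme2 of the PA28 activator. They amount to 18.2% of the 44, against 7.73% of all 16306 genes called lower and 6.7% called higher. The changes were small, from -10.1% for Psmd3 to -20.7% for Psma1, and none reached 2-fold, against 1.84% of all genes called at 2-fold or more. The direction was shared widely, since 38 of the 44 had a log2 fold change below 0 with a median of -0.07, while the median over all genes was 0.01. At an unadjusted p under 0.05 there were 16 (36.4%, against 28.5% of all genes). The 44 genes varied less within groups than all genes did (median SD of 0.0817 against 0.188 on the log2 scale). A change of a given size was therefore easier to call in them. They also varied together (mean pairwise correlation 0.41), so the shares here and in the comparisons below are descriptions.

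Psma1, an alpha-ring subunit at chr7:114264606-114276118 on GRCm38, had 80.2, 78.7, 83.4, 83.0 and 88.9 CPM in the 5 CD mice and 70.0, 67.3, 60.2, 64.1 and 66.6 CPM in the 5 TDD mice. Every TDD mouse was below every CD mouse. It was the most significant of the set (log2 fold change -0.34 ± 0.05 SE, edgeR adjusted p = 0.000266). Psmd11, a scaffold subunit of the lid of the 19S cap at chr11:80428615-80473248, had 62.6, 59.3, 64.3, 62.1 and 71.0 CPM on CD and 52.3, 56.7, 51.8, 55.4 and 56.3 CPM on TDD. Again the groups did not overlap (log2 fold change -0.23 ± 0.05 SE, edgeR adjusted p = 0.00561). Psmb5, the chymotrypsin-like catalytic subunit at chr14:54614119-54618022, had 49.4, 51.2, 48.5, 46.6 and 49.4 CPM on CD and 46.8, 44.0, 38.9, 40.4 and 41.1 CPM on TDD. Only TDD mouse 1 reached the lowest CD mouse, and the gene fell on TDD (log2 fold change -0.22 ± 0.05 SE, edgeR adjusted p = 0.00893). These 3 genes kept their call in all 11 other processings and in all 20 fits that left out 1 mouse.

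Psma5, another alpha-ring subunit, had 58.9, 64.9, 60.6, 64.4 and 70.9 CPM on CD and 59.4, 57.0, 52.0, 53.5 and 56.2 CPM on TDD. TDD mouse 1 overlapped the lowest CD mouse, and the fall passed the test (log2 fold change -0.20 ± 0.05 SE, edgeR adjusted p = 0.0162). Psmb2, a beta-ring subunit without catalytic activity, had 59.8, 63.5, 62.0, 64.1 and 69.7 CPM on CD and 59.4, 58.0, 54.2, 55.0 and 55.3 CPM on TDD. The groups did not overlap, though by a margin of less than 1 CPM (log2 fold change -0.18 ± 0.05 SE, edgeR adjusted p = 0.0268). Psmd3, another lid subunit, had 79.2, 89.1, 79.8, 83.9 and 94.8 CPM on CD and 77.6, 72.2, 75.7, 79.7 and 78.2 CPM on TDD. TDD mouse 4 lay just above CD mouse 1. The call was at the threshold (log2 fold change -0.15 ± 0.05 SE, edgeR adjusted p = 0.04995) and was lost in 13 of the 20 fits that left out 1 mouse, with adjusted p up to 0.137.

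Psme1, the alpha subunit of the PA28 activator, had 135, 125, 141, 155 and 193 CPM on CD and 128, 124, 104, 124 and 121 CPM on TDD. CD mouse 5 was the highest by far, and TDD mouse 1 overlapped CD mouse 2 (log2 fold change -0.32 ± 0.09 SE, edgeR adjusted p = 0.0213). Psme2, the beta subunit, had 191, 157, 192, 210.5 and 223 CPM on CD and 187, 160.4, 141, 162 and 149.7 CPM on TDD. Here CD mouse 2 was lower than TDD mice 1, 2 and 4 (log2 fold change -0.28 ± 0.09 SE, edgeR adjusted p = 0.0428). Both PA28 calls were lost without certain single mice, that of Psme2 in 9 of 20 such fits. Without CD mouse 5 the adjusted p was 0.0522 for Psme1 and 0.121 for Psme2, and without TDD mouse 3 it was 0.0581 and 0.109. The macrophage markers Csf1r, Cd68 and Adgre1 moved the same way, with 3 of 3 lower on TDD and a summed level of 63.7 to 83.3 CPM on CD against 34.3 to 55.7 CPM on TDD. Of the 4 T cell markers 0 were called, with 18.0 to 64.8 summed CPM on CD and 15.2 to 24.2 CPM on TDD. The goblet cell marker Clca1, 1 of 3 goblet markers called, fell on TDD (log2 fold change -0.98 ± 0.16 SE, edgeR adjusted p = 0.0006), with a mean of 1461 CPM on CD and 742 CPM on TDD. Muc2 (1201 and 1050 CPM, edgeR adjusted p = 0.423) and Tff3 (538 and 449 CPM, edgeR adjusted p = 0.272) were not called. The summed level of the 3, with Clca1 included, was 2850 to 3464 CPM on CD against 1735 to 2648 CPM on TDD, without overlap. Jchain, 1 of 3 plasma cell markers called, rose (log2 fold change 0.66 ± 0.19 SE, edgeR adjusted p = 0.0261). The part of these cell types in the values of the 8 genes called was not tested.

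The other 36 genes did not pass in this comparison. All 8 beta-ring genes were below 0, as were 6 of 7 alpha-ring genes, 5 of 6 ATPases, 11 of 14 Psmd genes and all 4 activators. The catalytic subunits other than Psmb5 lay close to 0, with -0.02 ± 0.05 SE for Psmb6 (edgeR adjusted p = 0.822) and -0.06 ± 0.06 SE for Psmb7 (edgeR adjusted p = 0.557) on the log2 scale. The 6 genes above 0 ranged up to 0.06, for Psmd9. The CD and TDD values did not overlap for 4 of the 44 genes (9.09%), Psma1, Psmd11, Psmb2 and Psmc2, against 9.58% of all genes. Without CD mouse 5 or TDD mouse 3 the number of genes called fell from 8 to 4, and without TDD mouse 4 to 5. Fitting CD and TDD alone left 3, Psma1, Psmb5 and Psmd11, while limma on log2(TPM + 1) called 17, all lower and the 8 among them.

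**Figure D2:**
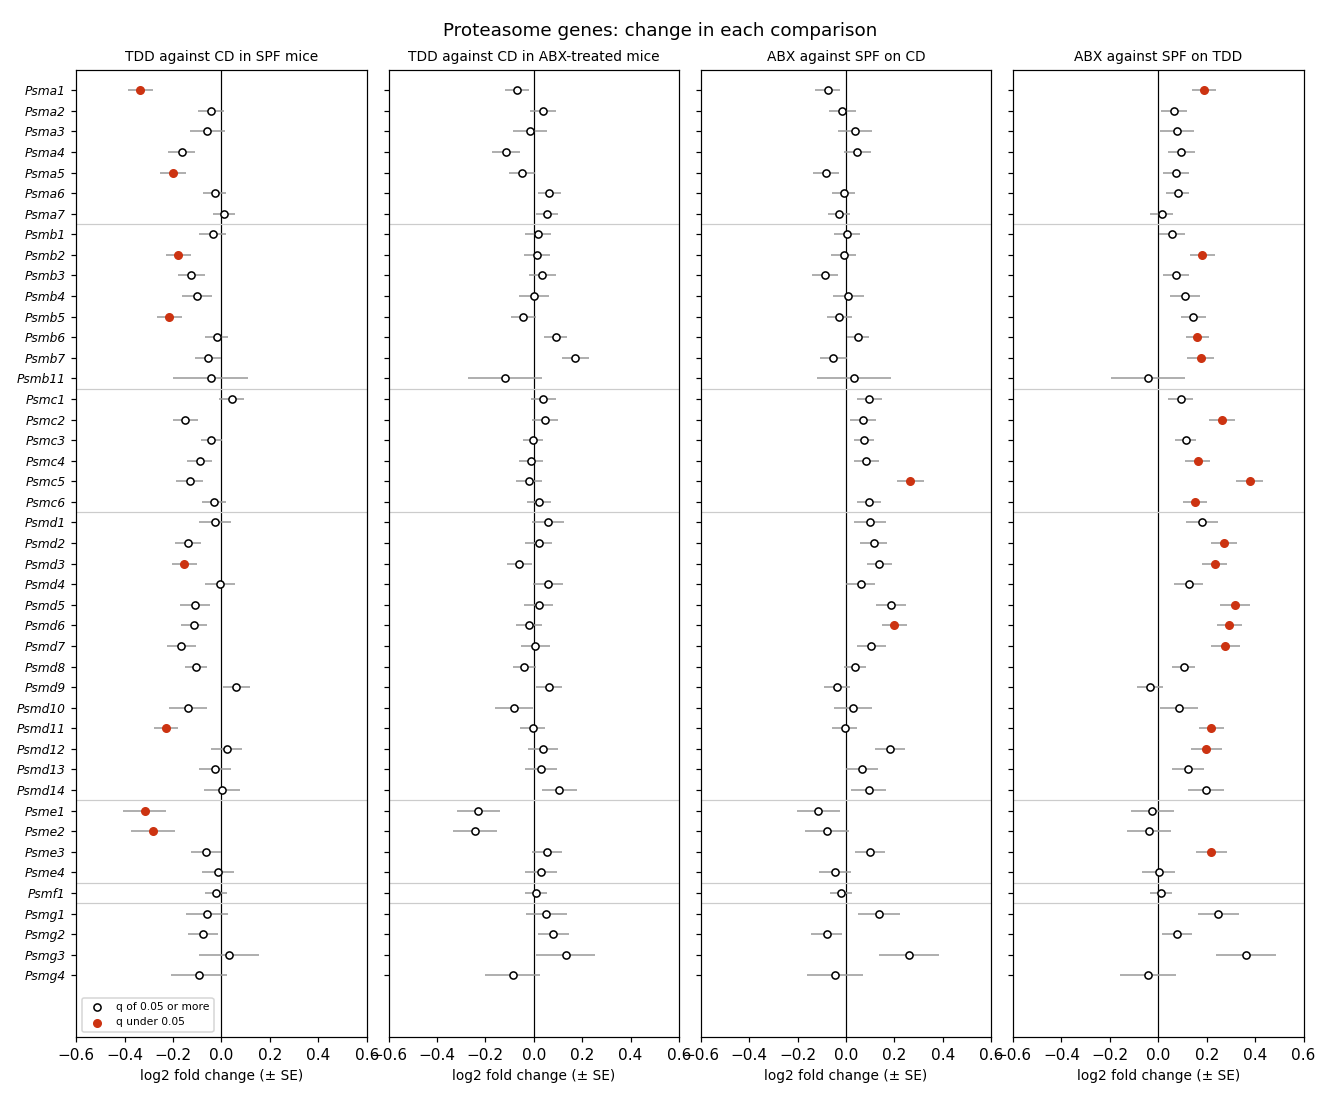
Log2 fold change (± SE) of the 44 tested proteasome genes in the 4 comparisons, in the order alpha ring, beta ring, ATPases, Psmd genes, activators, inhibitor and Psmg assembly chaperones, with filled points for an adjusted p under 0.05. The points lean left with TDD in SPF mice, gather near 0 with TDD in ABX-treated mice, and lean right with ABX on TDD, where 16 are filled.

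Next, the diets were compared in mice treated with antibiotics. No proteasome gene was called in either direction by edgeR, against 0.681% of all genes called higher and 1.09% lower (0.331% at 2-fold or more either way), and DESeq2 also called 0. At an unadjusted p under 0.05 there were 3 of 44 genes (6.82%, against 14.8% of all genes), Psmb7, Psme2 and Psme1. The median over the 44 was 0.02 and 26 of them lay above 0.

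Psmb7, the trypsin-like catalytic subunit, had 56.8, 54.4, 58.2, 61.2 and 59.2 CPM on CD+ABX and 71.1, 65.4, 67.6, 61.4 and 61.2 CPM on TDD+ABX. The 2 lowest TDD+ABX mice were level with the highest CD+ABX mouse (log2 fold change 0.17 ± 0.06 SE, edgeR adjusted p = 0.127). Psme2 had 159.8, 176, 183, 187 and 216 CPM on CD+ABX and 155, 164, 152, 152 and 156 CPM on TDD+ABX, overlapping only through CD+ABX mouse 1 (log2 fold change -0.24 ± 0.09 SE, edgeR adjusted p = 0.204). For Psme1 the values were 127, 138, 138, 139.6 and 149.5 CPM on CD+ABX and 119, 122, 112, 114 and 122 CPM on TDD+ABX. This was the only gene of the 44 whose groups did not overlap, against 4.78% of all genes, and it missed the threshold (log2 fold change -0.23 ± 0.09 SE, edgeR adjusted p = 0.22). Psma1, the gene with the smallest p on TDD in SPF mice, had 75.0, 74.7, 80.8, 83.2 and 79.2 CPM on CD+ABX and 78.2, 75.0, 78.7, 70.8 and 71.5 CPM on TDD+ABX, which overlapped (log2 fold change -0.07 ± 0.05 SE, edgeR adjusted p = 0.558). Limma on log2(TPM + 1) and on log2(TPM + 0.1) called Psmb7 higher in this comparison, and no other alternative called a proteasome gene.

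The effect of antibiotics was then examined on each diet. On CD, ABX raised 2 of 44 genes (4.55%, against 5.35% of all genes called higher), Psmc5 and Psmd6, and lowered none (against 7.43%). The share of genes called was therefore no larger than in the rest of the transcriptome. Both are parts of the 19S cap. No gene reached 2-fold, against 2.3% of all genes, and 6 had an unadjusted p under 0.05 (13.6%, against 26.7%). The median over the 44 was 0.04, and by role 6 of 6 ATPases and 12 of 14 Psmd genes lay above 0, against 2 of 7 alpha-ring and 4 of 8 beta-ring genes.

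Psmc5, an ATPase of the cap at chr11:106256154-106263120, had 79.2, 83.6, 80.3, 83.6 and 92.3 CPM on CD and 91.2, 95.4, 104, 102 and 111 CPM on CD+ABX. The groups overlapped only through CD mouse 5 and CD+ABX mouse 1, and the rise was 20.3% (log2 fold change 0.27 ± 0.06 SE, edgeR adjusted p = 0.0043). Psmd6, a lid subunit at chr14:14112174-14120984, had 42.1, 45.7, 39.9, 40.5 and 43.7 CPM on CD and 49.0, 46.4, 49.1, 49.3 and 49.7 CPM on CD+ABX. Every CD+ABX mouse was above every CD mouse (log2 fold change 0.20 ± 0.05 SE, edgeR adjusted p = 0.0184). Psmd6 was not called without CD mouse 3 (edgeR adjusted p = 0.0545), which left 1 call, while 4 genes were called without CD mouse 2. Of the 44, Psmd6 was the single gene whose groups did not overlap (2.27%), against 9.74% of all genes. DESeq2 called 5 genes, adding Psmd12, Psmd3 and Psmd5. Enterocyte markers moved with ABX on this diet, with 3 of 5 higher. Fabp6 rose 35.2-fold (mean 1.17 CPM on CD and 41.6 CPM on CD+ABX), Slc10a2 16.7-fold (2.36 and 39.5 CPM) and Fabp2 2.30-fold. Vil1 (mean 3679 CPM on CD and 3885 CPM on CD+ABX, edgeR adjusted p = 0.771) and Alpi (817 and 864 CPM, edgeR adjusted p = 0.817) were not called. The summed level of the 5, set mostly by Vil1 and Fabp2, was 5062 to 8836 CPM on CD against 9312 to 15780 CPM on CD+ABX. Fabp2 had a mean of 2849 CPM on CD and 6550 CPM on CD+ABX. All 3 macrophage and 3 of 4 T cell markers were lower. The part of these cell types in the proteasome values was not tested.

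On TDD, ABX raised 16 of the 44 genes (36.4%, against 7.19% of all genes called higher) and lowered none (against 8.3%). The 19S genes were most represented, with 4 of 6 ATPases (Psmc2, Psmc4, Psmc5 and Psmc6) and 7 of 14 Psmd genes. The 14 include the assembly chaperones Psmd5, Psmd9 and Psmd10, and the 7 were Psmd2, Psmd3, Psmd5, Psmd6, Psmd7, Psmd11 and Psmd12. The beta ring had 3 of 8 (Psmb2, Psmb6 and Psmb7), the alpha ring 1 of 7 (Psma1) and the activators 1 of 4 (Psme3). Of the 44, 39 lay above 0 with a median of 0.12, against -0.03 over all genes. The rises ran from 11.2% (Psmc6) to 29.9% (Psmc5), short of the 2-fold that 1.67% of all genes passed, while an unadjusted p under 0.05 was reached by 23 (52.3%, against 30.6%). This comparison shares its TDD mice with that of TDD against CD in SPF mice, so the values of one bear on the other.

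Psmc5 had 77.8, 80.7, 71.4, 77.7 and 75.2 CPM on TDD and 102, 102, 101, 94.0 and 98.5 CPM on TDD+ABX, with every TDD+ABX mouse above every TDD mouse (log2 fold change 0.38 ± 0.06 SE, edgeR adjusted p = 0.000507). Psmd6 had 38.3, 41.5, 37.1, 37.9 and 41.0 CPM on TDD and 50.6, 48.6, 51.2, 42.4 and 47.4 CPM on TDD+ABX, and TDD+ABX mouse 4 was the only one near the TDD group (log2 fold change 0.29 ± 0.05 SE, edgeR adjusted p = 0.00211). Psmd5, a chaperone of 19S base assembly, had 21.7, 20.4, 22.2, 21.6 and 23.0 CPM on TDD and 27.6, 30.3, 27.2, 24.9 and 25.5 CPM on TDD+ABX. These groups were also separate (log2 fold change 0.32 ± 0.06 SE, edgeR adjusted p = 0.00319). Psmd2, the large scaffold of the cap base, had 118, 123, 109, 118 and 122 CPM on TDD and 152, 146, 148, 137 and 129.8 CPM on TDD+ABX, again without overlap (log2 fold change 0.27 ± 0.05 SE, edgeR adjusted p = 0.00368). Psmc2, an ATPase, had 63.5, 65.8, 60.0, 63.4 and 66.1 CPM on TDD and 78.9, 79.8, 82.9, 69.0 and 72.1 CPM on TDD+ABX. All 5 treated mice were higher, with TDD+ABX mouse 4 the lowest of them (log2 fold change 0.26 ± 0.05 SE, edgeR adjusted p = 0.00391).

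Psmd7, a lid subunit that pairs with the deubiquitinase Psmd14, had 47.3, 54.5, 49.3, 51.4 and 57.7 CPM on TDD and 67.4, 65.4, 65.9, 56.4 and 60.4 CPM on TDD+ABX. TDD mouse 5 was above TDD+ABX mouse 4, so the groups overlapped (log2 fold change 0.28 ± 0.06 SE, edgeR adjusted p = 0.00594). Psmd3, with the TDD values given above, had 94.0, 88.9, 93.5, 86.5 and 87.7 CPM on TDD+ABX, each higher than any TDD mouse (log2 fold change 0.23 ± 0.05 SE, edgeR adjusted p = 0.00657). Psmd11 had 66.7, 64.9, 66.5, 57.3 and 61.7 CPM on TDD+ABX, above its TDD values, with TDD+ABX mouse 4 within 1 CPM of the highest TDD mouse (log2 fold change 0.22 ± 0.05 SE, edgeR adjusted p = 0.00892). These 8 genes kept their call in all 11 other processings and all 20 fits without 1 mouse, as did Psma1 (log2 fold change 0.19 ± 0.05 SE, edgeR adjusted p = 0.0181). The other 7, namely Psmb2, Psmb6, Psmb7, Psmc4, Psmc6, Psmd12 and Psme3, with log2 fold changes of 0.15 to 0.22, each lost their call in 4 to 7 of those 20 fits. Limma on log2(TPM + 1) called 34 genes, all higher and the 16 among them. The number called was 9 without TDD+ABX mouse 1, 2 or 3 and 10 without TDD mouse 3. In all, 14 of the 44 genes (31.8%) had groups that did not overlap, against 11.0% of all genes.

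The PA28 subunits were not among the genes called. Psme1 changed by -0.03 ± 0.09 SE (edgeR adjusted p = 0.873) and Psme2 by -0.04 ± 0.09 SE (edgeR adjusted p = 0.812) on the log2 scale, and both were above 0 in the TPM fits. Psmb5 was just short of a call (log2 fold change 0.15 ± 0.05 SE, edgeR adjusted p = 0.0631), and 5 of the 11 other processings called it higher, DESeq2 among them. Enterocyte markers were higher for the same 3 of 5 genes here, Fabp6 by 15.1-fold (mean 1.40 CPM on TDD and 20.1 CPM on TDD+ABX), Slc10a2 by 6.29-fold (5.89 and 37.1 CPM) and Fabp2 by 2.34-fold (3019 and 7053 CPM). Vil1 (3619 and 3725 CPM, edgeR adjusted p = 0.856) and Alpi (663.5 and 799.8 CPM, edgeR adjusted p = 0.2635) were not called. The summed levels were 6850 to 8053 CPM on TDD against 9382 to 13000 CPM on TDD+ABX. All 3 plasma cell markers were lower, from 1548 to 3328 CPM on TDD to 1114 to 1491 CPM on TDD+ABX, as were 2 of 4 T cell and 1 of 3 macrophage markers, and the goblet marker Clca1 was higher. The part of these cell types in the proteasome values was not tested.

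**Figure D3:**
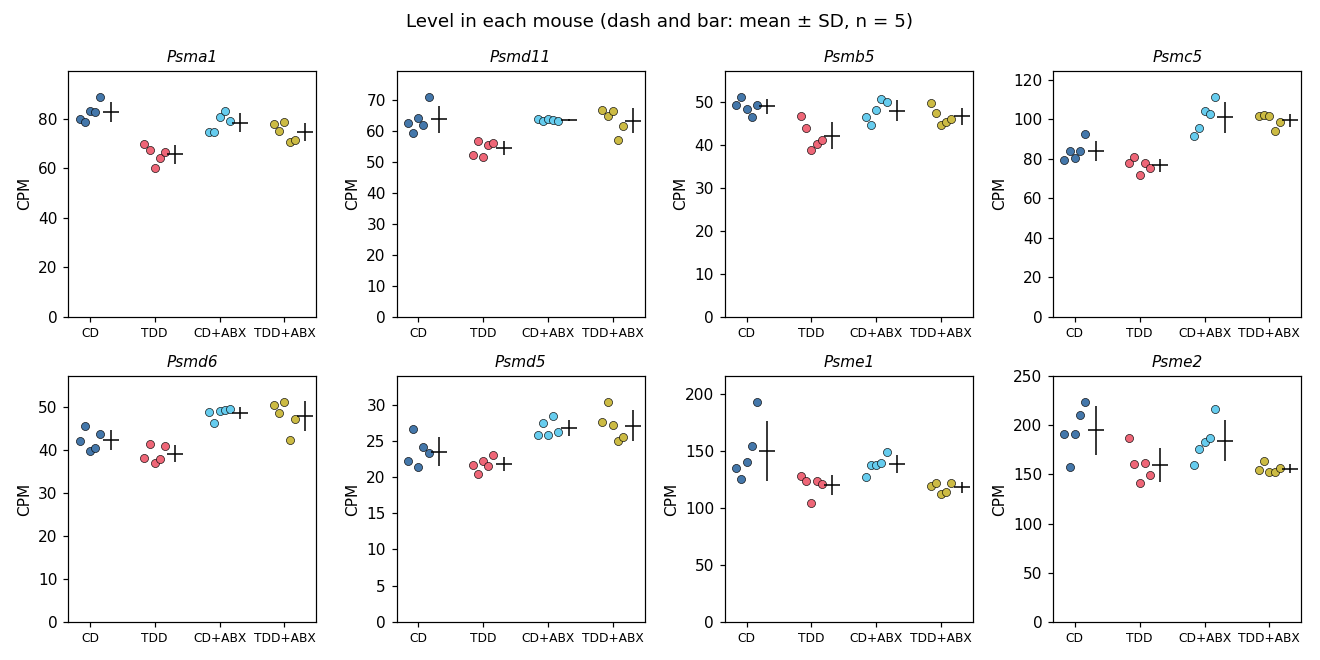
CPM of 8 proteasome genes in each of the 20 mice, by group from a zero baseline, with the mean and SD beside the points. Psma1, Psmd11 and Psmb5 are lowest in TDD mice, Psmc5, Psmd6 and Psmd5 are higher in both ABX groups than in TDD mice, and Psme1 and Psme2 have lower means on TDD in both settings, called in SPF mice only.

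Whether the diet effect differed between SPF and ABX-treated mice was tested with the interaction term. It called 0 of the 44 genes by edgeR in either direction, against 0.0184% of all genes each way and 0.0245% at 2-fold or more, and DESeq2 also called 0. At an unadjusted p under 0.05 there were 6 genes (13.6%, against 8.9% of all genes), Psma1, Psmd11, Psmb7, Psmb2, Psmc2 and Psmb5, with terms of 0.17 to 0.27 on the log2 scale. The largest was Psma1, whose diet effect was 0.27 ± 0.07 SE higher under ABX (edgeR adjusted p = 0.184), followed by Psmb7 at 0.23 ± 0.08 SE (edgeR adjusted p = 0.333) and Psmd11 at 0.22 ± 0.07 SE (edgeR adjusted p = 0.298). No single gene was thus shown to respond to the diet differently in the 2 settings, although 42 of the 44 terms were above 0 with a median of 0.09, against -0.01 over all genes. Set side by side, 18 genes were below 0 with TDD in both settings, 6 were above 0 in both, 20 were below 0 in SPF mice and above 0 under ABX, and 0 the other way round. Limma on log2(TPM + 1) called 1 gene, Psma1, with a median of 0.19 for the set and 0.08 for all genes. For PA28 the terms were 0.09 ± 0.13 SE (Psme1, edgeR adjusted p = 0.885) and 0.04 ± 0.13 SE (Psme2, edgeR adjusted p = 0.959).

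The constitutive catalytic subunits were next set against the inducible subunits that replace them. All 3 inducible genes were lower on TDD in SPF mice, with log2 fold changes of -0.51 ± 0.15 SE for Psmb8 (edgeR adjusted p = 0.0332), -0.76 ± 0.14 SE for Psmb9 (edgeR adjusted p = 0.00126) and -0.50 ± 0.12 SE for Psmb10 (edgeR adjusted p = 0.00853). Under ABX the diet changed none of them past the threshold, with -0.50 ± 0.15, -0.53 ± 0.14 and -0.42 ± 0.12 SE (edgeR adjusted p = 0.108, 0.0554 and 0.0782). ABX lowered Psmb8 on both diets (-0.65 ± 0.15 SE on CD, edgeR adjusted p = 0.00956, and -0.65 ± 0.15 SE on TDD, edgeR adjusted p = 0.0103) and Psmb9 on CD (log2 fold change -0.59 ± 0.14 SE, edgeR adjusted p = 0.0087). Not called with ABX were Psmb9 on TDD (-0.36 ± 0.14 SE, edgeR adjusted p = 0.0827) and Psmb10 on CD (-0.28 ± 0.12 SE, edgeR adjusted p = 0.126) and on TDD (-0.21 ± 0.12 SE, edgeR adjusted p = 0.237). The Psmb8 call with TDD in SPF mice was lost in 5 of the 20 fits without 1 mouse, the mice concerned being 1, 4 and 5 of CD and 3 and 5 of TDD (edgeR adjusted p up to 0.103). Under ABX, DESeq2 called Psmb9 and Psmb10 lower on TDD (DESeq2 adjusted p = 0.0150 and 0.0295).

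On the TPM scale, Psmb8 took 58.1, 43.9, 53.9, 60.5 and 63.1% of the sum with Psmb5 in CD mice and 52.7, 52.7, 47.5, 54.9 and 50.8% in TDD mice. It was 44.3, 49.6, 44.7, 45.2 and 45.4% in CD+ABX mice and 33.1, 43.1, 37.8, 34.7 and 41.0% in TDD+ABX mice. TDD+ABX mice were all below the other groups. The difference with TDD was not past the threshold in SPF mice (55.9% ± 7.50 against 51.7% ± 2.76, SD, exact permutation test, two-sided, adjusted p = 0.294) and was so under ABX (45.8% ± 2.14 against 37.9% ± 4.19, adjusted p = 0.0136). The result in SPF mice depended on CD mouse 2, the lowest CD mouse, without which TDD was lower by 7.19 percentage points (exact permutation test, adjusted p = 0.0212). With ABX the share was smaller by 10.1 percentage points on CD (exact permutation test, adjusted p = 0.0519) and 13.8 on TDD (adjusted p = 0.0136). Without CD mouse 2 the former was 13.1 percentage points (exact permutation test, adjusted p = 0.0136).

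Psmb9 took 18.4, 17.2, 20.3, 21.6 and 26.0% of the sum with Psmb6 in CD mice and 17.6, 13.0, 11.9, 14.0 and 12.7% in TDD mice. Under ABX it took 14.0, 14.7, 15.1, 16.3 and 13.6% on CD and 8.77, 10.8, 9.35, 9.97 and 11.8% on TDD. The share fell in all 4 comparisons, from 20.7% ± 3.43 to 13.9% ± 2.22 with TDD in SPF mice (SD, exact permutation test, adjusted p = 0.0238) and from 14.7% ± 1.05 to 10.2% ± 1.20 under ABX (adjusted p = 0.0136), and with ABX on each diet (adjusted p = 0.0136). Psmb10 took 73.3, 72.2, 72.2, 75.7 and 73.7% of the sum with Psmb7 in CD mice and 73.7, 64.7, 61.0, 64.3 and 63.1% in TDD mice. Under ABX it took 66.5, 68.0, 71.9, 70.0 and 71.7% on CD and 56.5, 60.6, 56.8, 63.2 and 61.2% on TDD. This share fell too, from 73.4% ± 1.47 to 65.4% ± 4.89 with TDD in SPF mice (exact permutation test, adjusted p = 0.0476), from 69.6% ± 2.37 to 59.7% ± 2.91 under ABX (adjusted p = 0.0136), with ABX on CD (adjusted p = 0.0136) and with ABX on TDD (adjusted p = 0.0476). TDD mouse 1, at 73.7%, stood with the CD mice. The Psmb10 calls with TDD in SPF mice and with ABX on TDD held in 12 and 11 of the 20 fits that left out 1 mouse, and that with ABX on CD in 19, missing without CD mouse 4 (exact permutation test, adjusted p = 0.0529). Adjusted p-values cover 12 tests, the smallest p that 5 against 5 mice can give being 0.00794 unadjusted, and shares on 1 length scale can move through either partner.

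**Figure D4:**
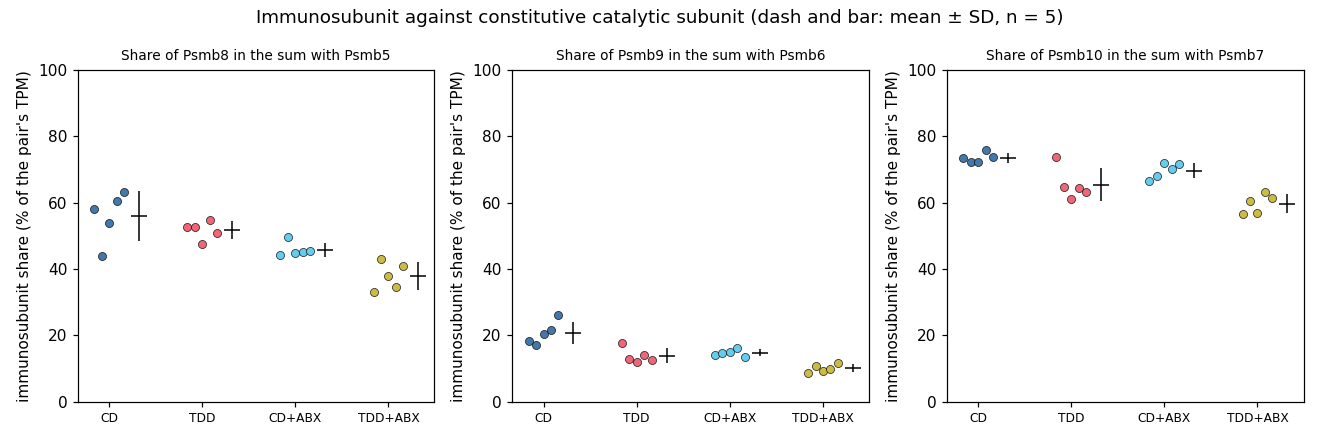
Share of the inducible subunit in the TPM sum with the constitutive subunit it replaces, in percent, for each of the 20 mice by group, with mean and SD beside the points. Psmb9 is the minor partner of Psmb6 in every mouse and Psmb10 the major partner of Psmb7, and all 3 shares are lowest in the TDD+ABX group.

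Genes that work with the proteasome were read from lists of associated proteins, the NRF1 axis, and ubiquitin genes with their shuttles. Of 9 tested associated proteins, 0 were called with TDD in SPF mice (against 6.7% of all genes higher and 7.73% lower), with TDD under ABX (0.681% and 1.09%) or with ABX on CD (5.35% and 7.43%), and 2 rose with ABX on TDD (7.19% higher and 8.3% lower). These shares of all genes also stand beside the lists that follow. They were Adrm1, a ubiquitin receptor of the cap (log2 fold change 0.22 ± 0.06 SE, edgeR adjusted p = 0.0255), and Txnl1, a thioredoxin-like protein bound to the cap (log2 fold change 0.25 ± 0.05 SE, edgeR adjusted p = 0.00382). Adrm1 had 61.1, 58.4, 56.0, 58.6 and 61.6 CPM on TDD and 76.4, 73.6, 66.8, 64.4 and 63.7 CPM on TDD+ABX, without overlap, and its call was lost on leaving out any of 5 single mice, namely 2, 3 and 4 of TDD and 1 and 2 of TDD+ABX (edgeR adjusted p up to 0.0765). Pomp, the chaperone that matures the 20S core, passed in none of the comparisons and had its smallest p with TDD under ABX (log2 fold change -0.21 ± 0.07 SE, edgeR adjusted p = 0.169). Of the 8 genes of the NRF1 axis, Nfe2l1 itself lay between 89.1 and 114 CPM over the 20 mice and was called by edgeR in no comparison, with log2 fold changes of -0.06, -0.05, 0.09 and 0.10 and edgeR adjusted p of 0.464, 0.686, 0.283 and 0.196 in the order of the comparisons above, while both TPM fits called it higher with ABX on TDD. The members that moved were Sel1l and Syvn1, which form the ubiquitin ligase complex of endoplasmic reticulum-associated degradation. Sel1l rose with TDD in SPF mice (log2 fold change 0.27 ± 0.08 SE, edgeR adjusted p = 0.035) and with ABX on CD (log2 fold change 0.29 ± 0.08 SE, edgeR adjusted p = 0.0272), calls that were lost in 13 and 5 of the 20 fits without 1 mouse. Syvn1 rose with ABX on CD (log2 fold change 0.94 ± 0.11 SE, edgeR adjusted p = 7.59e-05) and fell with TDD under ABX (log2 fold change -0.67 ± 0.11 SE, edgeR adjusted p = 0.00475).

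Among the ubiquitin, E1 and shuttle genes, Rps27a, which encodes ubiquitin fused to a ribosomal protein, rose with TDD in SPF mice (log2 fold change 0.29 ± 0.07 SE, edgeR adjusted p = 0.00962), a call lost in 4 of the 11 other processings. None of the 12 genes of this list was called by edgeR with TDD under ABX or with ABX on CD. With ABX on TDD, Rad23b, which carries ubiquitinated proteins to the cap, rose (log2 fold change 0.30 ± 0.06 SE, edgeR adjusted p = 0.00467).

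Finally, variation among mice of a group was described after removing group means from log2 CPM, computed in edgeR with an average prior count of 0.5. The SD within groups had a median of 0.0817 over the 44 proteasome genes and 0.188 over all genes tested. It was smallest for the ATPase Psmc3 (0.0530) and largest for Psmb11 (0.223) and the assembly chaperone Psmg3 (0.201), both among the lower expressed. The genes also varied together. Their mean pairwise Pearson correlation over the 20 mice was 0.41, against 0.0024 over all genes, with 0.73 within the alpha ring, 0.71 within the ATPases, 0.60 within the beta ring, 0.53 within the assembly chaperones, 0.37 within the activators and 0.33 within the Psmd genes. Psma6 had the highest mean correlation with the other proteasome genes (0.61), and Psmd5 (0.11) and Psme4 (0.12) the lowest. All points share library, depth and scaling, so these correlations are descriptions.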

How the data were processed

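Gene-level and transcript-level tables covered the same 20 mice. The authors enriched poly-A+ RNA, sequenced it on an Illumina NovaSeq and quantified reads against the GRCm38 mouse transcriptome with kallisto 0.44.0, and they deposited estimated counts per gene (whole numbers as deposited) and TPM per transcript. TPM was summed per gene here with GENCODE M21 names. Genes reaching 0.5 CPM in any mouse (16306 of 35204) were tested with edgeR 4.0.16 (R 4.3.3) by TMM scaling and quasi-likelihood over all 4 groups in 1 fit, with Benjamini-Hochberg adjustment over all genes and a threshold of 0.05. The 2-fold minimum of the study was counted separately. Shares of inducible subunits were compared with two-sided exact permutation tests. Totals were 36676963 to 58662617 counts per mouse. Counting error is largest for Psma8 (1 to 12 counts per mouse) and Psmb11 (49 to 105). Next come the Psmg genes, whose counts per mouse ran from 131 (Psmg4) to 639 (Psmg2).

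Alternatives were RLE, upper-quartile and no scaling, other filters, a replicate block, the groups compared alone, limma-voom and limma on log2(TPM + 1) or log2(TPM + 0.1) (limma 3.58.1), DESeq2 1.42.0 and leaving out each mouse. Scripts were tested on simulated counts. The genes and lists were chosen with earlier results of these data known, so no list was tested for enrichment. The permutation tests of the inducible shares used genes chosen in the same way and the same mice as the edgeR calls, so they are not separate support. Values per mouse were given for genes called in a comparison (the 8 smallest p where more passed, the 3 smallest where none did). Nfe2l1, Psmb8, Psmb9 and Psmb10 were reported in each comparison between 2 groups whatever their p. For Psmb5, Psmb6, Psmb7, Psme1, Psme2, Pomp and Adrm1, some results that were not called are not reported here. Psma1 under ABX and the remaining genes named from the lists were added to the genes above. A fit of the interaction on its 2 groups alone does not exist. Protein sequences were not used here. Some genes of the lists are not reported here.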

Additional observations from a re-analysis of the deposited data

Results flagged for a closer look

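Of 144 sets of 5 mice examined, 5 held 1 mouse far from the others by Dixon's test at the 95% level, where chance alone flags about 1 in 20. Psmc2 was at 78.8 CPM in CD mouse 5, with the next CD mouse at 69.6 CPM. Psmd6 was at 46.4 CPM in CD+ABX mouse 2, with the next at 49.0 CPM. The share of Psmb8 in the sum with Psmb5 was 49.6% in CD+ABX mouse 2, with the next at 45.4%. For Psmb10 with Psmb7 it was 73.7% in TDD mouse 1, with the next at 64.7%. The summed level of the activators was 594 TPM in CD+ABX mouse 1, with the next at 657 TPM.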

How the results depend on the processing

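Depth limited Psma8 and Psmb11 most, and the small size of the changes meant that many calls lay near the threshold. With TDD in SPF mice 8 genes were called, against 13 with library totals only, 3 with the 2 groups fitted alone and 17 with log2(TPM + 1) or log2(TPM + 0.1) in limma, where with the latter the median of the set was -0.15. With TDD under ABX the count of 0 became 1 in both TPM fits. With ABX on CD the count of 2 became 4 with RLE scaling, 1 with upper-quartile scaling, library totals or either TPM fit, and 5 with DESeq2. With ABX on TDD the count of 16 became 34 in both TPM fits, with medians of 0.208 and 0.210, and the interaction count of 0 became 1, with medians of 0.192 and 0.194. In the log2(TPM + 0.1) fit the median over all genes was 0.08 for ABX on TDD and 0.10 for the interaction, against -0.03 and -0.01 on counts. The cause of these differences was not tested. Computed from CPM, the share of Psmb8 in the sum with Psmb5 differed by -9.61 percentage points with ABX on CD (exact permutation test, adjusted p = 0.0433). Among called genes and shares, 0 changed direction under any alternative. Of 36 further values of named genes that were checked in this way, 5 changed sign, all of them small and not called. With log2(TPM + 1) and log2(TPM + 0.1) in limma, Nfe2l1 with TDD under ABX was at 0.0592 and 0.0606, and with ABX on TDD Psme1 was at 0.0786 and 0.0791 and Psme2 at 0.0277 and 0.0278, with Psme1 at 0.0003 by library totals. In fits lacking 1 mouse, Psme1 ranged from -0.0568 to 0.0049 and Psme2 from -0.0655 to 0.0246 with ABX on TDD, and their interaction terms from -0.0102 to 0.1652 and -0.0052 to 0.1261.

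Fits that each lacked 1 mouse called 4 to 11 genes with TDD in SPF mice, 1 to 4 with ABX on CD and 9 to 22 with ABX on TDD. In the first comparison Psmb2 was lost without CD mouse 5 or TDD mouse 3, 4 or 5 (edgeR adjusted p = 0.0602 to 0.0821). The Psmb8 share ranged from -7.19 to -2.39 percentage points with TDD in SPF mice and from -13.1 to -8.28 with ABX on CD. That of Psmb10 ranged from -10.1 to -6.95 with TDD in SPF mice, from -4.35 to -2.99 with ABX on CD and from -6.77 to -3.59 with ABX on TDD.

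Mice with the same number in different groups did not deviate together, since 4 of 30 correlations of their deviations exceeded 0.1 (range -0.30 to 0.21) and 2 of 20 mice correlated best with their own number. The numbers were therefore not treated as a pairing. Low correlations over all genes cannot exclude a pairing, because a small shared effect would leave them low. With the number as a replicate block, 5 genes were called with TDD in SPF mice, 2 with ABX on CD, 11 with ABX on TDD and 0 in the other comparisons.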
